A study of Mus musculus with 12 samples.

Results

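The fibrillar collagen genes of bone were followed through RNA from mouse tibia shafts. They are 10 genes, chosen by their symbols from the 47069 genes of the count matrix: *Col1a1*, *Col1a2*, *Col3a1*, *Col5a1*, *Col5a2*, *Col5a3*, *Col11a1*, *Col11a2*, *Col24a1* and *Col27a1*. All 10 had enough reads to be tested in every comparison. RNA-seq was performed on 12 male mice aged 8 weeks, with n = 4 mice in each of the groups WT, Jrt;Sost-het and Jrt;Sost-ko, 1 library per mouse, after the bone marrow had been flushed out. Mice of both Jrt groups were heterozygous for the Jrt allele of *Col1a1*, a splice donor mutation induced by N-ethyl-N-nitrosourea, and were therefore a model of dominant osteogenesis imperfecta. In Jrt;Sost-ko mice both copies of *Sost*, the gene of the Wnt inhibitor sclerostin, were also inactivated in the germline. Jrt;Sost-het mice are labelled by their *Col1a1* genotype alone, and the paper's methods give them 1 inactivated copy of *Sost*. WT mice carried neither allele and came from a parallel colony on the same mixed FVB/C57BL6 background, so that genotype and colony cannot be told apart in comparisons with WT.

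Fibrillar collagens are secreted as procollagens, trimmed at both ends and assembled side by side into the striated fibrils that carry the load in bone, tendon and skin. Each chain is built around a long stretch of Gly-X-Y triplets, in which the regular return of glycine lets the chains wind into a triple helix. Type I collagen, made of alpha 1 chains from *Col1a1* and an alpha 2 chain from *Col1a2*, is the main protein of bone matrix. Types III and V join type I in mixed fibrils, and type XI does the same for the type II collagen of cartilage. Types XXIV and XXVII are later-described members of the family with shorter unbroken runs of these triplets.

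The Jrt allele lacks exon 9 of *Col1a1* in its mRNA. In the GENCODE M21 annotation of GRCm38, *Col1a1* (ENSMUSG00000001506) spans chr11:94936224-94953042 and is read from the plus strand. Exons 8, 9 and 10 are each 54 bases long and each holds 18 whole codons, so that leaving out exon 9 keeps the reading frame and the Gly-X-Y register. The exons are shown because they hold the change shared by both Jrt groups. Capitals mark the glycine codons, 7 in exon 8 and 6 each in exons 9 and 10, and the sequences are the reference ones, on the strand of the gene.

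*Col1a1* exon 8, chr11:94939904-94939957: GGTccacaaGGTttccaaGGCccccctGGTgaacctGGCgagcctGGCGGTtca

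*Col1a1* exon 9, chr11:94940118-94940171: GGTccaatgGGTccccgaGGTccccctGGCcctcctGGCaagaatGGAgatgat

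*Col1a1* exon 10, chr11:94940545-94940598: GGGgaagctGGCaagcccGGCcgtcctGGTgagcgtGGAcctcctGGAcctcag

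The deposited counts are per gene, so the transcripts of the Jrt allele and of the normal allele were counted together and their shares are not given here. In the reference coding sequences, the longest unbroken run of Gly-X-Y triplets held between 337 and 344 triplets in 8 members. It was 216 triplets in *Col24a1* and 217 in *Col27a1*. *Col3a1* (chr1:45311538-45349706, plus strand) and *Col5a2* (chr1:45374321-45503282, minus strand) are neighbours whose 3′ ends face each other across a gap of 24614 bp. *Col5a1* (chr2:27886425-28039514, plus strand) shares exon bases with 2 other annotated genes, *2810430I11Rik* and *Gm13372*. The strand setting of the counting is not given in the sources used here, so its counts are less certain than those of the other 9 members, none of which shares exon bases with another gene.

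*Sost* served as a check of the labels. Its level was 27.97, 34.6, 70.4 and 26.8 CPM (TMM-normalized read counts scaled to the library total, used for all levels of a single gene) in Jrt;Sost-het mice 1 to 4, 0.571, 1.28, 0.508 and 0.326 CPM in Jrt;Sost-ko mice, and 50.7, 72.3, 62.2 and 28.5 CPM in WT mice. The Jrt;Sost-ko values lay below all others, with an adjusted p of 0.0130 against Jrt;Sost-het in edgeR. Mouse numbers are names and pair no mice across groups. Total counts per library ranged from 24366061 to 44418863. All 10 osteoblast and osteocyte markers listed were detected in every library with more than 3 counts. Libraries also held other tissues: the summed level of 10 skeletal muscle genes ran from 25.3 to 22720 CPM, and that of 9 cartilage genes from 97.5 to 3793 CPM. Although the marrow had been flushed out, 6 marrow blood cell genes summed to between 18850 CPM (Jrt;Sost-ko 3) and 33890 CPM (WT 2). In WT mice 1 to 4 the sums were 33450, 33890, 25330 and 19440 CPM. The part of marrow RNA in the differences between mice was not tested. The 8 epidermal genes summed to 122 CPM in WT 3 and 598 CPM in WT 4, against at most 8.52 CPM in the other 10 libraries, so comparisons with WT are also given without these mice. In bulk RNA, fewer cells of a type and less RNA per cell cannot be told apart.

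Type I collagen made up most of the fibrillar collagen RNA. *Col1a1* was measured at 13690 to 24820 CPM in Jrt;Sost-het mice (mean 18190 ± 4955, SD, n = 4), 16810 to 30050 CPM in Jrt;Sost-ko mice (23900 ± 5804) and 8934 to 24180 CPM in WT mice (15000 ± 6632). The 10 members together took between 2.48% and 7.45% of all counts of a library, with a median of 4.52% in Jrt;Sost-het, 6.21% in Jrt;Sost-ko and 3.63% in WT mice. Levels of different genes were set side by side only as CPM per kilobase of merged exon. On that scale type I collagen held 88.4% ± 1.05 (SD, n = 12 mice) of the summed level of the members, type XI 4.43% ± 0.424, type III 3.53% ± 0.695, type V 3.37% ± 0.230 and types XXIV and XXVII together 0.228% ± 0.0297. Per kilobase of transcript, a scale added after the data were seen, type XI (3.94%) and type III (3.92%) had nearly equal shares, type V had 2.76% and types XXIV and XXVII 0.175%. Within groups, type I held 87.5% ± 0.309 in Jrt;Sost-het, 89.5% ± 0.8998 in Jrt;Sost-ko and 88.3% ± 0.503 in WT mice (SD, n = 4 each). Its lowest share in a Jrt;Sost-ko mouse, 88.4%, was above the highest in a Jrt;Sost-het mouse, 87.74%. Jrt;Sost-het mice also lay below the lowest WT mouse, 87.89%, but overlapped with WT per kilobase of transcript, and Jrt;Sost-ko and WT overlapped on both scales. These shares were not tested, and neither *Col1a1* nor *Col1a2* was called in any comparison. In level, 3.20% of all genes differed without overlap between the Jrt groups, and 1.54% in Jrt;Sost-het against WT. Type III held 4.09% ± 0.371, 3.09% ± 0.768 and 3.41% ± 0.597 in Jrt;Sost-het, in Jrt;Sost-ko and in WT mice (SD, n = 4 each).

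The order of the members per kilobase of merged exon was *Col1a1*, *Col1a2*, *Col3a1*, *Col11a2*, *Col5a2*, *Col11a1*, *Col5a1*, *Col5a3*, *Col24a1* and *Col27a1*. Each gene was above the next in 12 of 12 mice, except that *Col3a1* was above *Col11a2* in 10 of 12. The place of *Col1a1* over *Col1a2* depended on the length used. Per kilobase of merged exon it was 1.45 times as high on average, whereas per kilobase of the transcript with the longest coding part it was at 0.691 times, below *Col1a2* in 12 of 12 mice. The merged exons of *Col1a2* span 12426 bases and that transcript 5348 bases, against 6563 and 5930 bases for *Col1a1*. The step from *Col1a2* to *Col3a1* was the widest of the order, a factor of 7.71 to 18.6 between mice. The step from *Col3a1* to *Col11a2*, a factor of 0.707 to 1.69, was the one between neighbours that did not exceed the spread between mice, and the step from *Col5a3* to *Col24a1* was 1.04 to 1.83.

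**Figure D1:**
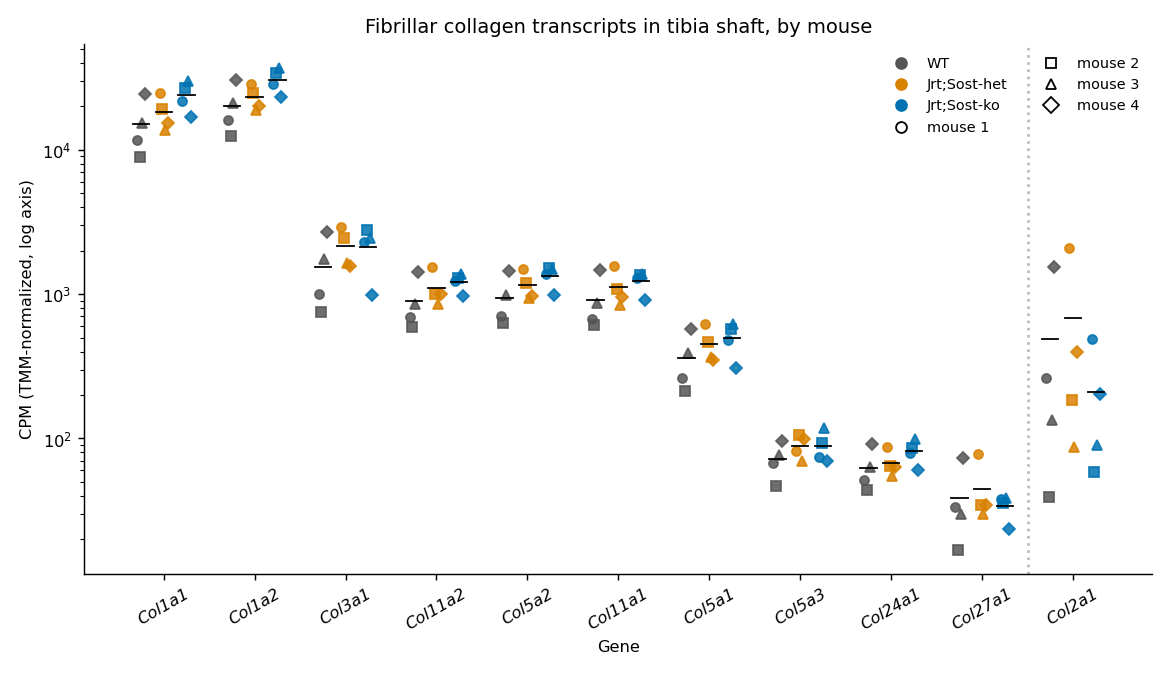
Level of each fibrillar collagen gene in each mouse, in CPM on a log axis, with the genes in order of their level per kilobase and *Col2a1*, which is not a member, at the right. Colours are groups, symbols are mice 1 to 4 (not paired across groups) and short bars are group means (n = 4). *Col1a1* and *Col1a2* stand at 8934 CPM or more in every mouse, and the groups overlap for every member. WT 4 is the highest WT mouse for all 10 members and Jrt;Sost-het 1 the highest of its group for all but *Col5a3*.

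Every member varied at least 2.28-fold between the lowest and the highest of the 12 mice. *Col27a1* varied most, 4.59-fold, and *Col24a1* least. *Col1a2* measured 28360, 24700, 18840 and 20120 CPM in Jrt;Sost-het mice 1 to 4, 28490, 34100, 36760 and 23070 CPM in Jrt;Sost-ko mice, and 16160, 12500, 20890 and 30420 CPM in WT mice. Of the Jrt;Sost-ko values, 3 were above the highest Jrt;Sost-het value, and WT 4 was above 2 of the Jrt;Sost-ko mice. *Col3a1*, whose product is prominent in young and distensible connective tissue, measured 2905, 2433, 1646 and 1577 CPM in Jrt;Sost-het mice, 2284, 2759, 2461 and 978 CPM in Jrt;Sost-ko mice, and 1004, 748, 1756 and 2680 CPM in WT mice. Jrt;Sost-ko 4 was low for *Col3a1*, and the groups overlapped throughout. *Col27a1*, known from developing cartilage, measured 78.1, 34.7, 30.1 and 34.6 CPM in Jrt;Sost-het mice, 38.4, 35.8, 38.8 and 23.5 CPM in Jrt;Sost-ko mice, and 33.6, 17.0, 30.1 and 73.5 CPM in WT mice. The 2 high mice, Jrt;Sost-het 1 and WT 4, were also the highest of all 12 for the summed cartilage markers (3793 and 3051 CPM) and for *Col2a1*, the type II collagen gene of cartilage (2083 and 1529 CPM, against 39.5 to 485 CPM in the other mice). The part of cartilage RNA in the *Col27a1* values was not tested.

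For each of the remaining members WT 2 was the lowest of the 12 mice. *Col5a1*, *Col5a2* and *Col5a3*, which encode chains of type V collagen, ran from 213 to 620 CPM, from 633 to 1525 CPM and from 46.9 to 118 CPM. *Col11a1* ran from 614 to 1565 CPM, *Col11a2* from 594 to 1534 CPM and *Col24a1* from 43.7 to 99.4 CPM. These CPM values are not scaled for length and do not order the genes.

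The members varied together from mouse to mouse. Over the 12 mice, Pearson's r of log2 CPM between members ran from 0.567 to 0.994 with a median of 0.930 over the 45 pairs, and 44 pairs had an adjusted permutation p under 0.05. After the group means were subtracted the median r was 0.948, so the shared variation was also present within groups. *Col1a1* and *Col1a2*, the chains of type I collagen, gave r = 0.994 and Spearman's rho = 0.972 (permutation p = 1e-05 for each, the smallest that 100000 permutations can give, adjusted p = 2.5e-05 and 0.00012), and r = 0.989 when the 2 mice with the most extreme *Col1a1* levels were left out. *Col11a1* and *Col11a2*, chains of type XI collagen, gave r = 0.991 and rho = 0.993 (permutation p = 1e-05 for each, adjusted p = 2.5e-05 and 0.00012), and r = 0.987 without the 2 farthest mice. *Col5a3* and *Col27a1* followed the other members least, with median r of 0.758 and 0.767. The pair of *Col5a3* and *Col27a1* had r = 0.567 and rho = 0.636 (permutation p = 0.055 and 0.030, adjusted p = 0.055 and 0.030), and r = 0.362 without the 2 farthest mice. Within the 4 Jrt;Sost-het mice r between *Col5a3* and every other member was at most 0.264, whereas in WT mice it was at least 0.890. These levels share their libraries and the mixture of tissues in them, and the part of that mixture in the correlations was not tested.

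**Figure D2:**
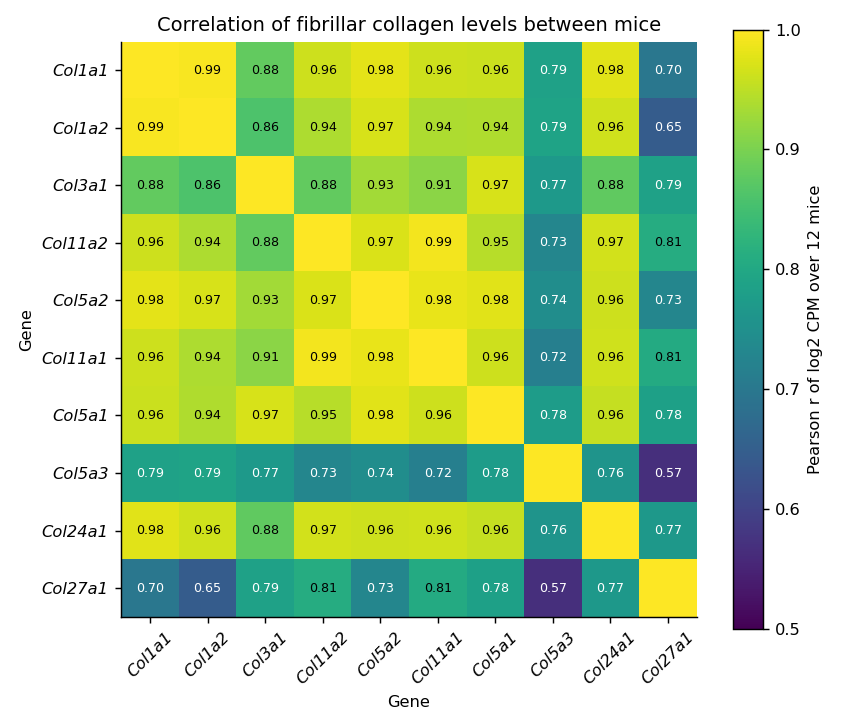
Pearson's r of log2 CPM over the 12 mice for each pair of fibrillar collagen genes, on a colour scale from 0.5 to 1. The values run from 0.567 to 0.994, with *Col5a3* and *Col27a1* the lowest rows and the pairs *Col1a1* and *Col1a2* and *Col11a1* and *Col11a2* the highest.

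Among the 11862 genes with a mean of at least 5 CPM that passed the filter on low counts, the genes most like each member over the 12 mice were taken as those with the highest r. For *Col1a1* they were *Lox* (r = 0.994), the lysyl oxidase that crosslinks collagen, *Col1a2* and *Sparc* (0.987), the bone matrix protein osteonectin. *Col1a2* had *Col1a1*, *Lox* (0.992) and *Sparc* (0.9898). For *Col3a1* they were *Thbs2* (0.984), *Ephb3* (0.980) and *P4ha3* (0.977), a prolyl hydroxylase subunit. *Col5a1* was nearest to *Col6a3* (0.995), *Sec31a* (0.9903), a COPII coat subunit, and *Pcdhgc3* (0.986), and *Col5a2* to *Bgn* (0.986), *Sparc* (0.986) and *Creb3l1* (0.985), a transcription factor of the osteoblast endoplasmic reticulum. *Col11a1* had *Col11a2*, *Col5a2* (0.984) and *Zfp354c* (0.981). *Col11a2* had *Col11a1*, *P3h1* (0.981), the prolyl 3-hydroxylase of collagen, and *Ppic* (0.979). *Col24a1* was nearest to *Smpd3* (0.986), *Mmp16* (0.985) and *Sdk2* (0.981). *Col5a3* and *Col27a1* again stood apart. *Col5a3* was nearest to *Sema4c* (0.934), *Morc4* (0.920) and *Plcg1* (0.918), and the first other member on its list, *Col1a2*, was at rank 443. *Col27a1* was nearest to *Susd5* (0.960), *Ptch1* (0.949), the hedgehog receptor, and *Loxl4* (0.949), and the first other member, *Col11a2*, was at rank 235.

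Since *Col11a1* and *Col11a2* lie on different chromosomes and varied almost as one, the 250 bases before their RefSeq start sites (GRCm38.p6) are given. Capitals mark matches, searched on both strands, to the TATA box letters TATAAA, to the CCAAT box and to the GC box letters GGGCGG, and no match overlaps another here.

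*Col11a1*, chr3:114030290-114030539, plus strand: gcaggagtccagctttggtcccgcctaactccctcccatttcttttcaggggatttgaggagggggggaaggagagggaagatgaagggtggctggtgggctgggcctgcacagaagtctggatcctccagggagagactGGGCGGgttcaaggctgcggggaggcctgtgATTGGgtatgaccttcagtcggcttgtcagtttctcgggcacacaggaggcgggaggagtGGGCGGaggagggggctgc

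*Col11a2*, chr17:34038888-34039137, plus strand: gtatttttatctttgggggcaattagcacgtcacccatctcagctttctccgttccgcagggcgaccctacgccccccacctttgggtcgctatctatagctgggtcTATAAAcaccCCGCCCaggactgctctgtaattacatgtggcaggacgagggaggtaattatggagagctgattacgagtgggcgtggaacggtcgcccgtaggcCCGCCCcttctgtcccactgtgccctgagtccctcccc

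Both windows held 2 matches to GGGCGG, as did those of *Col1a2*, *Col5a1* and *Col5a3*, and 32.7% of 32851 mouse windows of this length held at least 1. The share of windows holding 2 was not counted. *Col11a1* also had 1 match to CCAAT (33.8% of windows) and *Col11a2* 1 to TATAAA (12.4%). The matches are letters in a window, not binding sites. A RefSeq start site was at hand for 8 of the 10 members, and in GENCODE M21 *Col11a2* starts 300 bases downstream of the end of its window (chr17:34039437).

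The first question of the design was what loss of *Sost* adds in mice with the Jrt allele. No fibrillar collagen gene was called in Jrt;Sost-ko mice relative to Jrt;Sost-het mice. *Col1a1* was 1.31-fold as high (95% interval 0.905 to 1.91, edgeR's quasi-likelihood test, adjusted p = 0.901) and *Col1a2* 1.33-fold (0.982 to 1.80, adjusted p = 0.901), with exact permutation p of 0.200 and 0.114. *Col3a1* (0.991-fold, 0.599 to 1.64) and *Col5a3* (1.002-fold, 0.747 to 1.34) had nearly equal group means. *Col27a1* was at 0.769-fold (0.474 to 1.25), a log2 fold change of -0.38 that became 0.04 without Jrt;Sost-het 1. The other 5 members lay between 1.102-fold and 1.20-fold. In all, 8 of 10 members were higher in Jrt;Sost-ko mice. Their median log2 fold change was 0.15, against 0.0013 over all 16739 genes tested, and ran from 0.04 to 0.35 when single mice were left out, the lowest without Jrt;Sost-het 3 and the highest without Jrt;Sost-het 1. None of the 10 had an unadjusted p under 0.05 in edgeR, where 5.02% of all genes had, and none differed without overlap of the groups, where 3.20% of all genes did. With adjusted p under 0.05 edgeR called 0.00597% of all genes, which was *Sost* alone. DESeq2 called 0 members (0.0896% of all genes) and so did limma-voom (0.0% of all genes), with 1 member each at an unadjusted p under 0.05, where 5.41% and 8.86% of all genes were.

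The next question was how mice with the Jrt allele and 1 copy of *Sost* differ from WT. In Jrt;Sost-het against WT mice, all 10 members were higher, and none was called. The direction of *Col24a1* and *Col27a1* turned on single mice, with log2 fold changes of -0.03 and -0.21 without Jrt;Sost-het 1 and of -0.02 and -0.03 without WT 2. The largest difference was that of *Col3a1* (1.38-fold, 0.732 to 2.61) and the smallest that of *Col24a1* (1.08-fold, 0.740 to 1.59). *Col1a1* was 1.21-fold as high (0.707 to 2.08, adjusted p = 1 in edgeR, exact permutation p = 0.371). The median log2 fold change was 0.30, against 0.0036 over 16775 genes, and it was 0.10 without Jrt;Sost-het 1 and 0.15 without WT 2. No member had an unadjusted p under 0.05 (2.14% of all genes) or groups without overlap (1.54%), and edgeR called 0.0% of all genes. DESeq2 and limma-voom called 0 members (0.0% of all genes with each), and 0 had an unadjusted p under 0.05 with either, where 2.40% and 4.59% of all genes had.

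In Jrt;Sost-ko against WT mice the differences were wider. *Col1a1* was 1.59-fold as high (0.937 to 2.72, adjusted p = 0.9996 in edgeR, exact permutation p = 0.114), *Col1a2* 1.53-fold (0.948 to 2.49) and *Col5a2*, the alpha 2 chain of type V collagen, 1.43-fold (0.924 to 2.21). *Col27a1* was the 1 member below WT, at 0.885-fold (0.468 to 1.68), and it was above WT without WT 4 (log2 fold change 0.35). The median log2 fold change over the members was 0.46, against -0.0030 over 17155 genes, and it was 0.30 without WT 2. Again 0 members were called by edgeR (0.00583% of all genes), 0 had an unadjusted p under 0.05 (3.89%), and 0 were without overlap (2.40%). DESeq2 gave 2 members an unadjusted p under 0.05 (4.61% of all genes) and limma-voom 7 (8.98%), and neither called one (0.0816% and 0.0117% of all genes called).

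When the 8 Jrt mice were set against the 4 WT mice, which are the same mice as in the comparisons above, all 10 members were higher, from 1.02-fold for *Col27a1* (0.588 to 1.74) to 1.40-fold for *Col1a1* (0.918 to 2.12). *Col27a1* was below WT when Jrt;Sost-het 1 (-0.19) or WT 2 (-0.23) was left out, as log2 fold changes. The median log2 fold change was 0.39, against -0.0028 over 17245 genes, and it was 0.23 without WT 2. Called by edgeR were 0 members (0.0058% of all genes), with 0 at an unadjusted p under 0.05 (3.21%) and 0 without overlap (0.168%). Limma-voom with sample quality weights, which gives less weight to libraries far from their group, had 8 members at an unadjusted p under 0.05 (6.91% of all genes) and DESeq2 had 0 (3.48%). Limma-voom called 0 members (0.0% of all genes) and DESeq2 0 (0.0464%).

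WT 4 moved the comparisons with WT most. It was the highest WT mouse and lay above the Jrt;Sost-het mean for all 10 members. Without WT 4 the median log2 fold change over the members was 0.62 for Jrt;Sost-het, 0.79 for Jrt;Sost-ko and 0.70 for both Jrt groups, with 7, 7 and 9 members at an unadjusted p under 0.05, where 9.40%, 6.95% and 9.49% of all genes were. Without WT 3 and WT 4, the libraries with epidermal transcripts, the medians were 0.81, 0.98 and 0.88, with 9 members at an unadjusted p under 0.05 each time. The share of all genes with such a p was also larger in these fits, at 19.8%, 12.7% and 17.5%. *Col3a1* then had a log2 fold change of 1.31 in Jrt;Sost-het (adjusted p = 0.118 in edgeR) and 1.28 in Jrt;Sost-ko mice (adjusted p = 0.333), and *Col1a1* of 0.84 (adjusted p = 0.179) and 1.22 (adjusted p = 0.302). No member was called by edgeR in any of these fits, in which 0.0%, 0.0115% and 0.00575% of all genes were called without WT 4 and 0.0%, 0.00571% and 0.00565% without WT 3 and WT 4. The 2 mice left, WT 1 and WT 2, were those with the lowest summed osteoblast and muscle markers among the WT mice. Without WT 3 and WT 4 the median log2 fold change in Jrt;Sost-het against WT was 0.66 over the 10 osteoblast and osteocyte genes. It was 1.56 over the 7 tendon and periosteum genes, 2.21 over the 9 cartilage genes and 3.07 over the 10 muscle genes. Over the 6 marrow blood cell genes it was -0.33. In Jrt;Sost-ko against WT the medians were 0.89 over the osteoblast and osteocyte genes and 1.31 over the tendon and periosteum genes. They were 0.48 over the cartilage genes (6 of 9 higher), 2.03 over the muscle genes and -0.43 over the marrow blood cell genes. There 0 cartilage and 0 muscle genes had an unadjusted p under 0.05 in edgeR, where 12.7% of all genes had. In both comparisons the medians of the members had the sign of those of several other tissues, opposite to marrow blood cells. The part of these tissues in the differences was not tested.

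**Figure D3:**
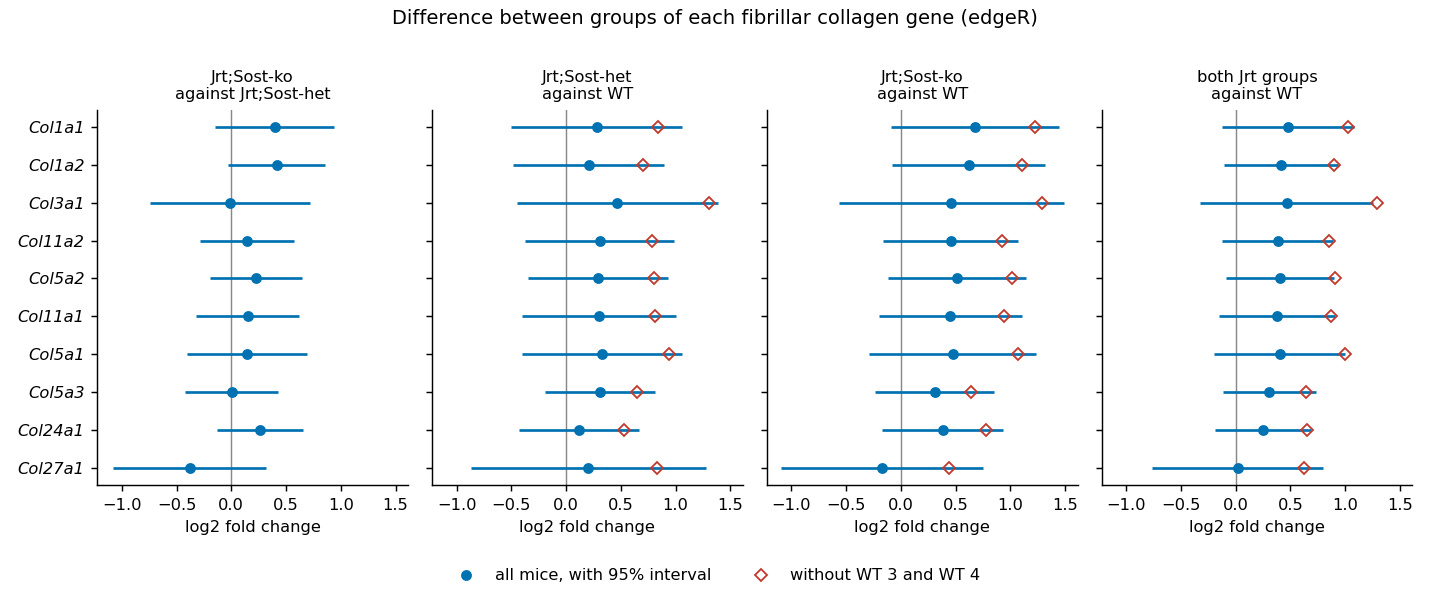
Log2 fold change of each fibrillar collagen gene in the 4 comparisons, with 95% intervals from edgeR (filled circles and lines, all mice) and the value without WT 3 and WT 4 (open diamonds). Every interval with all mice includes 0, and the open diamonds lie to the right of the filled circles for all members in the 3 comparisons with WT.

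Ratios of counts within a mouse do not depend on the scaling of the library. The ratio of *Col1a1* to *Col1a2* was 0.875, 0.770, 0.727 and 0.757 in Jrt;Sost-het mice 1 to 4, 0.767, 0.788, 0.818 and 0.729 in Jrt;Sost-ko mice, and 0.724, 0.715, 0.728 and 0.795 in WT mice. The groups overlapped. The log2 difference between the Jrt groups, Jrt;Sost-ko minus Jrt;Sost-het, was -0.01 ± 0.07 (SE, exact two-sided permutation p = 0.914), and 0.07 ± 0.05 for both Jrt groups against WT (exact permutation p = 0.192). WT 4 was the highest WT mouse by a wide gap. For this and 7 further ratios, 32 tests were made over the 4 comparisons, of which 6 had an exact permutation p under 0.05 and 0 an adjusted p under 0.05. With 4 mice against 4 the smallest p is 0.0286, and its adjusted value here was 0.152.

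*Col3a1* counts were 11.7% ± 1.01 (SD, n = 4) of *Col1a1* counts in Jrt;Sost-het, 8.68% ± 2.17 in Jrt;Sost-ko and 9.90% ± 1.65 in WT mice. Among Jrt;Sost-ko mice 1 to 4 the values were 10.45%, 10.27%, 8.19% and 5.82%, and only the first lay above the lowest Jrt;Sost-het value of 10.36%. The log2 difference, Jrt;Sost-ko minus Jrt;Sost-het, was -0.47 ± 0.21 (SE, exact permutation p = 0.0571, adjusted p = 0.203). In Jrt;Sost-het against WT it was 0.25 ± 0.14 (exact permutation p = 0.143, adjusted p = 0.352), and 0.46 without WT 3 and WT 4.

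Among the ratios tested, those of *Col5a1* and *Col27a1* to *Col1a1* were lower without overlap in Jrt;Sost-ko mice than in both other groups. That of *Col24a1* was lower without overlap than in WT mice alone. *Col1a1* itself was higher in Jrt;Sost-ko mice, by log2 fold changes of 0.39 against Jrt;Sost-het and 0.68 against WT. The median over all genes was 0.0013 and -0.0030. A gene with no change in level would thus also have a lower ratio to *Col1a1*. The share of all genes with such a ratio without overlap was not computed. *Col5a1*, the alpha 1 chain of type V collagen, measured 2.495%, 2.44%, 2.69% and 2.31% of *Col1a1* in Jrt;Sost-het mice, 2.22%, 2.14%, 2.06% and 1.84% in Jrt;Sost-ko mice and 2.25%, 2.39%, 2.57% and 2.36% in WT mice. All 4 Jrt;Sost-ko values lay below the other 8, with log2 differences of -0.27 ± 0.07 against Jrt;Sost-het and -0.21 ± 0.07 against WT (SE, exact permutation p = 0.0286 and adjusted p = 0.152 for each). *Col27a1* measured 0.315%, 0.183%, 0.220% and 0.227% of *Col1a1* in Jrt;Sost-het mice, 0.175%, 0.133%, 0.129% and 0.140% in Jrt;Sost-ko mice and 0.287%, 0.191%, 0.198% and 0.304% in WT mice. Here too the Jrt;Sost-ko mice were the lowest, at 0.619-fold of Jrt;Sost-het and 0.598-fold of WT (log2 differences -0.69 ± 0.19 and -0.74 ± 0.20, SE, exact permutation p = 0.0286 and adjusted p = 0.152 for each). *Col24a1*, expressed in bone-forming cells, was at 0.344% ± 0.0215 of *Col1a1* in Jrt;Sost-ko against 0.432% ± 0.0450 in WT mice (SD, n = 4), without overlap (exact permutation p = 0.0286, adjusted p = 0.152), and Jrt;Sost-het mice lay between and overlapped both. Without WT 3 and WT 4 the log2 differences of Jrt;Sost-ko relative to WT were -0.17 for *Col5a1*, -0.43 for *Col24a1* and -0.71 for *Col27a1*, where 4 mice against 2 cannot give an exact permutation p under 0.0667.

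These ratios share *Col1a1* as their denominator and are not independent of one another. With *Col1a2* in its place, which was tried after the data were seen, the log2 difference of *Col27a1* in Jrt;Sost-ko mice was -0.70 against Jrt;Sost-het and -0.67 against WT (exact permutation p = 0.0286 for each), and that of *Col5a1* was -0.28 against Jrt;Sost-het (exact permutation p = 0.0286) and -0.15 against WT (exact permutation p = 0.200). Over *Col1a2*, *Col5a2* was also lower in Jrt;Sost-ko mice, by a log2 difference of -0.18 relative to Jrt;Sost-het (exact permutation p = 0.0286). For *Col24a1* it was -0.26 relative to WT (exact permutation p = 0.0286). In these comparisons the remaining ratios over *Col1a2* had an exact permutation p of 0.0857 or more. No p over *Col1a2* was adjusted. *Col1a2* was itself higher in Jrt;Sost-ko mice, by log2 fold changes of 0.41 against Jrt;Sost-het and 0.62 against WT. A gene with no change in level would thus also have a lower ratio to *Col1a2*, which is no independent check. Cartilage markers also had lower means in Jrt;Sost-ko mice, where 0 of 9 had a higher mean than in Jrt;Sost-het mice. Their median log2 fold change was -1.75, and none was called. *Comp*, a cartilage and tendon matrix protein, had the smallest p (-0.91 ± 0.31, SE, adjusted p = 0.901 in edgeR). The groups overlapped in the summed markers, at 3793, 588, 355 and 875 CPM in Jrt;Sost-het mice 1 to 4. In Jrt;Sost-ko mice the sums were 951, 196, 340 and 422 CPM, so Jrt;Sost-het 1 weighed heavily in the difference. The part of cartilage RNA in the *Col27a1* ratio was not tested. The ratios of *Col5a2* and *Col11a1* to *Col1a1* overlapped between all groups, and so did that of *Col5a1* to *Col5a2*, the chains of type V collagen, at 0.389 ± 0.0207 in Jrt;Sost-het, 0.365 ± 0.0433 in Jrt;Sost-ko and 0.375 ± 0.0271 in WT mice (SD, n = 4).

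**Figure D4:**
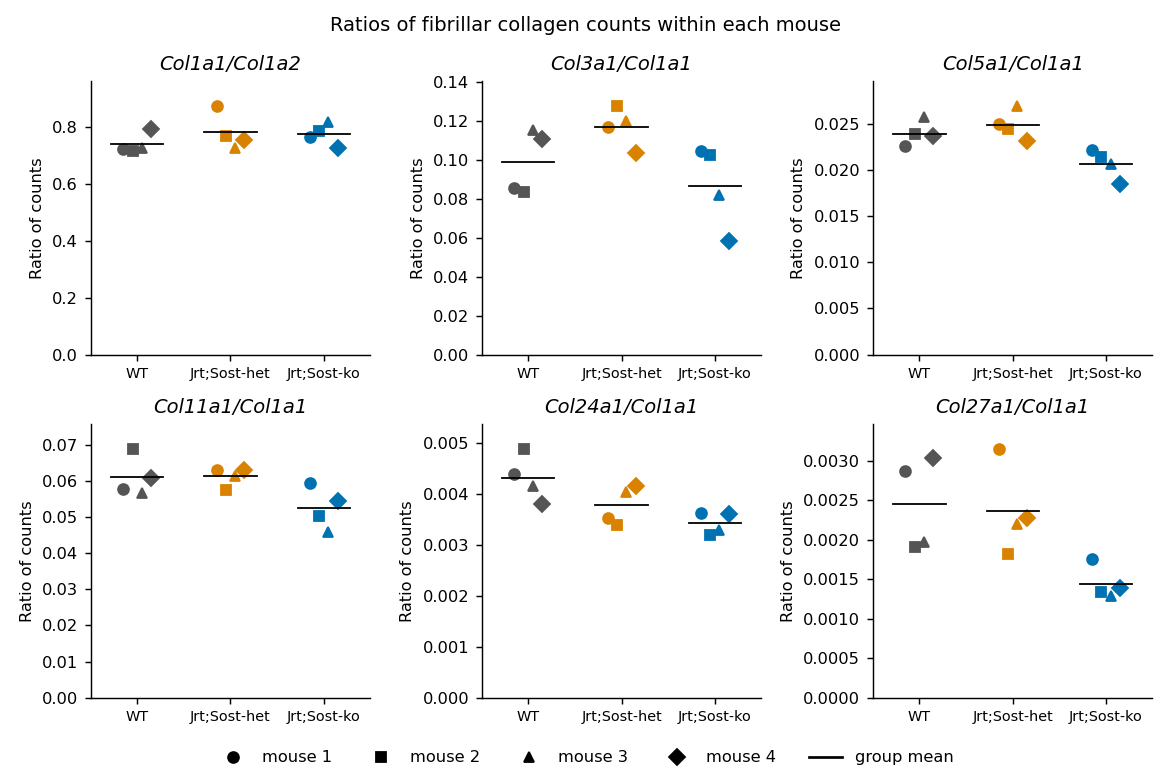
Ratio of counts within each mouse for 6 pairs of fibrillar collagen genes, by group, with axes from 0. Symbols are mice 1 to 4 (not paired across groups) and bars are group means (n = 4). The Jrt;Sost-ko mice lie below all others for *Col5a1* and *Col27a1* over *Col1a1*, whereas *Col1a1* over *Col1a2* overlaps in all groups.

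Other collagen genes and the enzymes that mature type I collagen gave no calls in edgeR in any comparison. Of 24 genes of type I collagen maturation, 21 had a higher mean with *Sost* lost, Jrt;Sost-ko over Jrt;Sost-het (median log2 fold change 0.15). The numbers were 23 for Jrt;Sost-het over WT mice (0.22) and 22 for Jrt;Sost-ko over WT mice (0.36). In these comparisons 2, 0 and 3 had an unadjusted p under 0.05 in edgeR, where 5.02%, 2.14% and 3.89% of all genes had. *Colgalt2*, a galactosyltransferase acting on collagen hydroxylysine, ran from 7.74 to 11.6 CPM in Jrt;Sost-het and from 2.14 to 5.67 CPM in Jrt;Sost-ko mice, without overlap (log2 fold change -1.27 ± 0.27, SE, adjusted p = 0.901 in edgeR). In DESeq2 it was the 1 gene of the list called in that comparison (0.0896% of all genes), with an adjusted p of 0.0115. DESeq2 called 0 of the list in the others (0.0%, 0.0816% and 0.0464% of all genes). Of 11 network, beaded and other collagens, 6, 11 and 9 were higher in the same comparisons. *Col8a1*, a short-chain collagen, had the smallest p, with a log2 fold change of 0.42 ± 0.15 (SE) for the Jrt groups, Jrt;Sost-ko over Jrt;Sost-het (unadjusted p = 0.0210 and adjusted p = 0.901 in edgeR). Of 9 fibril-associated collagens measured, 3, 9 and 4 were higher, and *Col20a1* had the smallest p, with a log2 fold change of -0.35 ± 0.20 between the same groups (SE, adjusted p = 0.901 in edgeR). DESeq2 and limma-voom called 0 genes of both these lists.

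Among the bone cell markers, 9 of 10 osteoblast and osteocyte genes had a higher mean in Jrt;Sost-ko than Jrt;Sost-het mice. Of these, 3 had an unadjusted p under 0.05 in edgeR, where 5.02% of all genes had. The median log2 fold change of the list was 0.29 against 0.15 for the fibrillar collagens. *Bglap*, the osteocalcin gene, ran from 481 to 627 CPM in Jrt;Sost-het and from 667 to 855 CPM in Jrt;Sost-ko mice (log2 fold change 0.46 ± 0.11, SE, adjusted p = 0.901 in edgeR and 0.0442 in DESeq2). It was the 1 gene of its list that DESeq2 called, where 0.0896% of all genes were called between these groups, and limma-voom called 0. *Col2a1*, the fibrillar collagen of cartilage, had log2 fold changes of -1.72 ± 1.01 for Jrt;Sost-ko over Jrt;Sost-het mice and 0.48 ± 1.23 in Jrt;Sost-het against WT mice (SE, adjusted p = 0.901 and 1 in edgeR), and it varied 52.7-fold between mice. In the remaining lists edgeR called 0 genes. Of 10 muscle genes 0 had a higher mean in Jrt;Sost-ko than Jrt;Sost-het mice (median log2 fold change -1.003) and 6 in Jrt;Sost-het than WT mice (0.09). Of 7 tendon and periosteum genes, the numbers were 2 (-0.07) and 6 (0.46), and of 6 marrow blood cell genes 3 (-0.01) and 1 (-0.10). In these 3 lists 0 had an unadjusted p under 0.05 in edgeR, where 5.02% and 2.14% of all genes had. All 4 epidermal genes tested were lower in both Jrt groups together than in WT mice (median log2 fold change -3.45). Of them 3 had an unadjusted p under 0.05 in edgeR, where 3.21% of all genes had. DESeq2 called *Krt10* and *Dsp* there (0.0464% of all genes), the latter named after its values were seen. *Krt10* ran from 1.35 to 208 CPM in WT mice and from 1.49 to 2.07 CPM in Jrt mice. The difference lay in WT 3 and WT 4, as the epidermal genes summed to 5.24 and 5.40 CPM in WT 1 and WT 2. Without WT 3 and WT 4, 2 of the 4 were higher in Jrt mice (median log2 fold change 0.10). Then 0 had an unadjusted p under 0.05 in edgeR, where 17.5% of all genes had.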

How the data were processed

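Libraries of poly(A) RNA from flushed tibia shafts were sequenced paired-end on a NovaSeq. The authors aligned the reads to GRCm38 with STAR in the GenPipes pipeline and deposited raw read counts per gene, with Ensembl identifiers and symbols. The counting tool, its strand setting and the annotation release are not given in the sources used here. The 9 deposited tables of comparisons hold fold changes and p-values and were not used, nor were the single-mouse files. The members and gene lists were chosen with earlier results of these data known.

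Counts were tested as deposited with edgeR 4.0.16 in R 4.3.3 (TMM normalization, default filter on low counts, quasi-likelihood test, Benjamini-Hochberg adjustment over all genes tested, threshold 0.05), in a separate fit for each pair of groups (8 mice) and for both Jrt groups against WT (12 mice). DESeq2 1.42.0 and limma-voom 3.58.1 were alternatives. Gene lists were described by counts and medians only. Fold intervals are 95% intervals from edgeR. Levels are TMM-scaled CPM, with a prior count of 2 on the log2 scale. Ratios used raw counts and exact two-sided permutation tests (70 arrangements for 4 against 4 mice, 495 for 8 against 4), adjusted over 32 tests. Correlations used 100000 permutations and were adjusted over 45 pairs, using numpy 2.4.6 and scipy 1.17.1. Gene models came from GENCODE M21, which matched 46488 of 47069 identifiers. Scripts were tested on simulated data. Named genes were the members, *Col2a1* and *Sost*, in each list the genes called by edgeR or otherwise the gene with the smallest p, and the 3 genes most like each member.

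Total counts ran from 24366061 to 44418863 per library. The p-values of the group comparisons weigh the differences between groups against the spread between mice. Same-group libraries differed beyond sampling noise in all 18 pairs.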

Additional observations from a re-analysis of the deposited data

Results flagged for a closer look

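In groups of 4 mice, a mouse was singled out where its gap to the nearest other mouse, divided by the range of the group, exceeded Dixon's 95% critical value for 4 values. Of 57 groups examined 5 met this, against 2.85 expected where values are normally distributed. CPM values need not be, and the groups share mice and correlated genes, so 2.85 is only a rough guide. Jrt;Sost-het 1 stood above its group for *Col27a1* (78.1 CPM against 30.1 to 34.7, gap share 0.9037) and for *Col2a1* (2083 CPM against 87.3 to 398, gap share 0.8442). It was also the mouse with the highest summed cartilage markers of its group. WT 4 stood above the other WT mice for *Col2a1* (1529 CPM against 39.5 to 263, gap share 0.8503) and for the ratio of *Col1a1* to *Col1a2* (0.795 against 0.715 to 0.728, gap share 0.8391). Jrt;Sost-ko 4 stood below its group for *Col11a1* (916 CPM against 1299 to 1376, gap share 0.832), and its summed muscle markers were the lowest of all mice at 25.3 CPM.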

How the results depend on the processing

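No paired analysis was possible because the mouse numbers follow the order of the samples and pair no mice across groups. The count of members called was 0 in all 70 alternative fits. Of 700 alternative log2 fold changes of members 26 changed sign, for *Col3a1*, *Col5a3*, *Col24a1* and *Col27a1* alone. Between the Jrt groups, *Col3a1* was at 0.09154 with limma-voom, and *Col5a3* at -0.005357 with upper-quartile scaling, -0.005733 with at least 10 counts in every mouse, -0.04184 with limma-voom and -0.001495 with 12 mice in 1 fit. *Col27a1* in Jrt;Sost-ko mice relative to WT was at 0.1946 with limma-voom and 0.4387 without WT 3 and WT 4. When single mice were left out, the log2 fold change between the Jrt groups ran from -0.1652 to 0.2203 for *Col3a1*, from -0.1614 to 0.09541 for *Col5a3* and from -0.5328 to 0.03702 for *Col27a1*, the last without Jrt;Sost-het 1. Relative to WT it ran from -0.02878 to 0.3627 for *Col24a1* and from -0.2115 to 0.728 for *Col27a1* in Jrt;Sost-het mice, and for *Col27a1* from -0.4181 to 0.3501 in Jrt;Sost-ko and from -0.2258 to 0.5452 in both Jrt groups, the highest each time without WT 4. Log2 differences of ratios changed sign in 29 of 368 alternatives. Without WT 3 and WT 4 those in Jrt;Sost-het mice were -0.02861 for *Col5a2*/*Col1a1*, -0.0414 for *Col11a1*/*Col1a1* and, without a change of sign, 0.4627 for *Col3a1*/*Col1a1*, and *Col5a1*/*Col5a2* in Jrt;Sost-ko mice was at 0.02721. From CPM group means, both Jrt groups relative to WT gave -0.0265 for *Col3a1*/*Col1a1* and -0.005194 for *Col5a1*/*Col5a2*. With *Col1a2* as denominator, chosen after seeing the data, *Col27a1* in Jrt;Sost-het mice relative to WT was at 0.02814. With single mice left out, *Col1a1*/*Col1a2* between the Jrt groups ran from -0.04453 to 0.04494, and in Jrt;Sost-het mice *Col5a2*/*Col1a1* ran from -0.03149 to 0.05316, *Col11a1*/*Col1a1* from -0.02501 to 0.06751 and *Col27a1*/*Col1a1* from -0.1965 to 0.06618. *Col5a1*/*Col5a2* ran from -0.1124 to 0.02522 for Jrt;Sost-ko relative to WT and from -0.04822 to 0.04071 for both Jrt groups, and *Col3a1*/*Col1a1* from -0.05407 to 0.1317 in both. Per kilobase of transcript, also chosen after seeing the data, *Col1a1* was at 0.6908 of *Col1a2*, and the shares of types V, XI and XXIV with XXVII moved to 2.761%, 3.937% and 0.1751%. After subtraction of group means *Col5a3* lost its adjusted p under 0.05 with *Col11a1* and *Col11a2*. The cause of these changes was not tested.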
